A study of Mus musculus with 4 samples.

Results

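Lysozymes and angiogenins are small secreted antimicrobial proteins, and 5 of their genes were compared, together with the gene of an intracellular inhibitor, between intestinal stem cell sorts that had or lacked the type I interferon receptor. The 6 genes were chosen by name: the lysozymes Lyz1 and Lyz2, the angiogenins Ang, Ang2 and Ang4, and the ribonuclease inhibitor Rnh1. Each was represented by 1 probe, found through its RefSeq accession, so the members make up 6 of the 55681 probes on the array and 6 of the 24864 genes tested. All 6 probes were well above background on all 4 arrays, with 0 outlier flags and 0 saturated spots, so no member was lost to the filter on dim probes and none of its folds is a bound. The choice did not rest on measured values, but it was made with earlier results of these data known.

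Lysozymes cleave the sugar backbone of the bacterial cell wall. Mice have a pair of lysozyme genes that arose by duplication: Lyz1 is the Paneth cell form and Lyz2 the form of macrophages and other myeloid cells. Angiogenins belong to the ribonuclease A family. They cut RNA, including transfer RNA in stressed cells, and Ang4 is known as a microbicidal product of Paneth cells, the granular secretory cells that sit among the Lgr5 stem cells at the crypt base. Rnh1 encodes a leucine-rich cytosolic protein that binds ribonucleases of this family very tightly and blocks them.

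The cells were Lgr5-high intestinal stem cells sorted by flow cytometry. Control mice carried the Lgr5-EGFP-Ires-CreERT2 knock-in, which places a green fluorescent reporter and an inducible recombinase under the Lgr5 promoter. Knockout mice carried the same knock-in on an Ifnar1-/- background, and so lacked 1 chain of the type I interferon receptor. All mice had received daily intraperitoneal poly(I:C), a mimic of viral double-stranded RNA, at 2 mg/kg over 1 week, and no untreated sample is part of the comparison. There were 2 samples per group, each hybridised to a single-colour array. The arrays of control 1 and knockout 1 shared slide 1, while those of control 2 and knockout 2 shared slide 2. Neither the age of the animals nor whether each sample came from its own animal is stated in the labels, so p-values reflect only how these samples vary, and that variation may be technical.

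Depth here means signal over background. The share of non-control spots well above background was 63.3% to 67.7% per array, and the number of arrays limits the precision. Ifnar1, the targeted gene, fell from -0.21 in control 1 and -0.37 in control 2 to -1.76 in knockout 1 and -2.28 in knockout 2 (log2 signal minus the array's 75th percentile, the level scale used throughout; limma with the slide as a block, adjusted p = 0.0467). The labels do not say where its probe lies relative to the disruption. Lgr5, the gene that defines the sort, read 3.04 and 2.82 on the control arrays and 3.32 and 2.93 on the knockout arrays. Of 21 interferon-stimulated genes tested, 10 fell with the slide block, where 0.362% of all genes did, and 0 passed without it. On all 4 arrays 18 of the 21 were well above background. Ifit1, Ifi44 and Usp18 were so on 2 arrays, and passed the filter on dim probes only through the controls. The filter thus favoured lower knockout values for these genes, and Ifit1 and Ifi44 are among the 10. Each of the 21 was lower on either slide, as were 27.3% of all genes. The list had a median of -2.45, against a median of 0.02 over all genes tested.

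The stretches before the transcription starts of 4 members that fell are shown here because Lyz1 and Lyz2 fell together and because Ang shares its start with a neighbour that was measured too. They hold the 250 bases upstream of the start, in the direction of the gene, from RefSeq on build GRCm38.p6. In the lysozyme pair, capitals mark letters that differ between the genes or stand opposite a gap in their alignment.

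Lyz1, chr10:117292869-117293118, minus strand: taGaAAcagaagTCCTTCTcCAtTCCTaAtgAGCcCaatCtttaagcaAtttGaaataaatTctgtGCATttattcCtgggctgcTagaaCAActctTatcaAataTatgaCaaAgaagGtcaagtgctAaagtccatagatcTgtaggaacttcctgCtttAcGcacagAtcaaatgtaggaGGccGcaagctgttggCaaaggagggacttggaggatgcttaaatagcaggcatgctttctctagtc
Lyz2, chr10:117282273-117282522, minus strand: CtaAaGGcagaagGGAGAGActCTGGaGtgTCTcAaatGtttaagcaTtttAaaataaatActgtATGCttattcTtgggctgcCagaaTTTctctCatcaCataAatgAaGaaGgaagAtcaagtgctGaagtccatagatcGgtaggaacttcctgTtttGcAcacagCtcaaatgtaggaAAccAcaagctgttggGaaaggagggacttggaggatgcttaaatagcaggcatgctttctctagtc

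The lysozyme promoters were alike, and most alike near the start. Over the whole stretch 200 of 252 aligned columns were identical (79.4%), with 48 mismatches and 4 gap columns. Identity was 92 of 100 columns in the 100 bases nearest the start and 71.1% in the 150 bases before them. The 50 bases next to the start were the same in both genes, letter for letter.

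Ang and Ang4 were printed with a TATA box in capitals (TATAAA or TATATA, either strand), a motif searched after the values were seen.

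Ang, chr14:51090827-51091076, plus strand: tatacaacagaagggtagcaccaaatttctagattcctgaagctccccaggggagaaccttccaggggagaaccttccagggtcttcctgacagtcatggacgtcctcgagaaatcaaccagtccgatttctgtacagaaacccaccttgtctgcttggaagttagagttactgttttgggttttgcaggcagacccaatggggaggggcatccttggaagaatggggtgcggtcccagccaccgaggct
Ang4, chr14:51773591-51773840, minus strand: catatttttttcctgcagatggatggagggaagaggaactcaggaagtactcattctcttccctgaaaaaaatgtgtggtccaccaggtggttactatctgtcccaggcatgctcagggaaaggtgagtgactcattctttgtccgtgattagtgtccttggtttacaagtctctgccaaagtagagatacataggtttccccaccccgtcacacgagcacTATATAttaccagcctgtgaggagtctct

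Ang4 had 1 TATA box, which began 29 bases before the start, while Ang, Lyz1 and Lyz2 had 0 in this window; 15.6% of the 32851 promoters in the RefSeq table held one. The interferon-stimulated response element core, searched on both strands, was found in 0 of the stretches of Lyz1, Lyz2, Ang, Ang4 and Rnh1 (3 starts), and in 2.98% of all promoters. The TCF/LEF core (CTTTGAT or CTTTGAA, both strands) was found in 0 of them and in 7.48% of all. These matches describe letters in a window and say nothing about binding. The window printed for Ang is also 1 of the 2 start windows listed for Rnase4, at the same coordinates. Ang2 has no entry in the table.

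Lyz1, the Paneth cell lysozyme, was lower without the receptor on both slides. Its processed signal, on the scanner's linear scale, was 10847 in control 1 and 15464 in control 2, against 2174 in knockout 1 and 4692 in knockout 2. The higher of the knockout arrays stayed below the lower of the control arrays, and in each group the array on slide 2 was the brighter. On the log2 scale the level went from 5.72 ± 0.35 to 3.71 ± 0.71 (mean ± SD, n = 2), a 4.04-fold lower signal. Within slides the fold was 4.82 on slide 1 and 3.38 on slide 2. Lyz1 fell with the slide block (limma, difference -2.01 with SE 0.13, adjusted p = 0.012). It did not pass in the fit without a slide term (SE 0.38, adjusted p = 0.556).

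Lyz2, the myeloid-type lysozyme, was lower on both slides as well. Its processed signal was 999 and 1453 in controls 1 and 2 and 137 and 271 in knockouts 1 and 2, again with no overlap between the groups. The mean log2 level was 2.30 ± 0.37 in the control and -0.34 ± 0.62 in the knockout (n = 2), which is 6.24-fold lower, with 7.07-fold on slide 1 and 5.50-fold on slide 2. Lyz2 fell with the slide block (limma, difference -2.64 with SE 0.14, adjusted p = 0.00759; adjusted p = 0.292 without it). The differences of Lyz1 and Lyz2 were 0.55 apart on slide 1 and 0.70 apart on slide 2, with Lyz2 the more negative on each; this was not tested. Their transcripts are similar, and whether either probe also binds the other's transcript was not tested.

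Ang2 and Ang4 are relatives of angiogenin that have no direct human counterpart. Angiogenin transcripts are also similar to each other, and whether the probes of Ang, Ang2 and Ang4 bind each other's transcripts was not tested. Ang2 read 1136 and 1482 on the control arrays and 152 and 253 on the knockout arrays (processed signal). Its log2 level went from 2.41 ± 0.26 to -0.31 ± 0.44 (mean ± SD, n = 2), 6.59-fold lower, and it fell with the slide block (limma, difference -2.72 with SE 0.13, adjusted p = 0.00609; adjusted p = 0.223 without the block). Among the 24864 genes tested, 44 had a mean difference as negative as this or more so, itself included.

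Ang4 read 2246 and 3247 on the control arrays and 402 and 567 on the knockout arrays (processed signal). The groups lay far apart relative to their spread, with log2 levels of 3.46 ± 0.36 and 0.97 ± 0.27 (mean ± SD, n = 2). Its 2 slides were the closest of all members, with folds of 5.40 on slide 1 and 5.88 on slide 2. It fell 5.64-fold with the slide block (limma, difference -2.50 with SE 0.10, adjusted p = 0.00459; adjusted p = 0.223 without the block).

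Ang, the mouse orthologue of human angiogenin, had the smallest mean difference of the 5 secreted proteins. Its processed signal was 2779 and 4684 on the control arrays, against 950 and 1317 on the knockout arrays. The log2 level was 3.88 ± 0.52 and 2.20 ± 0.26 (mean ± SD, n = 2), 3.21-fold lower, and it fell with the slide block (limma, difference -1.68 with SE 0.12, adjusted p = 0.0134; adjusted p = 0.51 without the block). Unlike Lyz1, Lyz2 and Ang2, its larger difference lay on slide 2 (3.65-fold) and not on slide 1 (2.83-fold), as it did by a small margin for Ang4. Relative to Ang4, the Ang difference was less negative by 0.93 on slide 1 and 0.69 on slide 2. Relative to Ang2, it was less negative by 1.35 and 0.72. Against Lyz1, the Ang difference was less negative by 0.77 on slide 1 but more negative by 0.11 on slide 2.

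**Figure D1:**
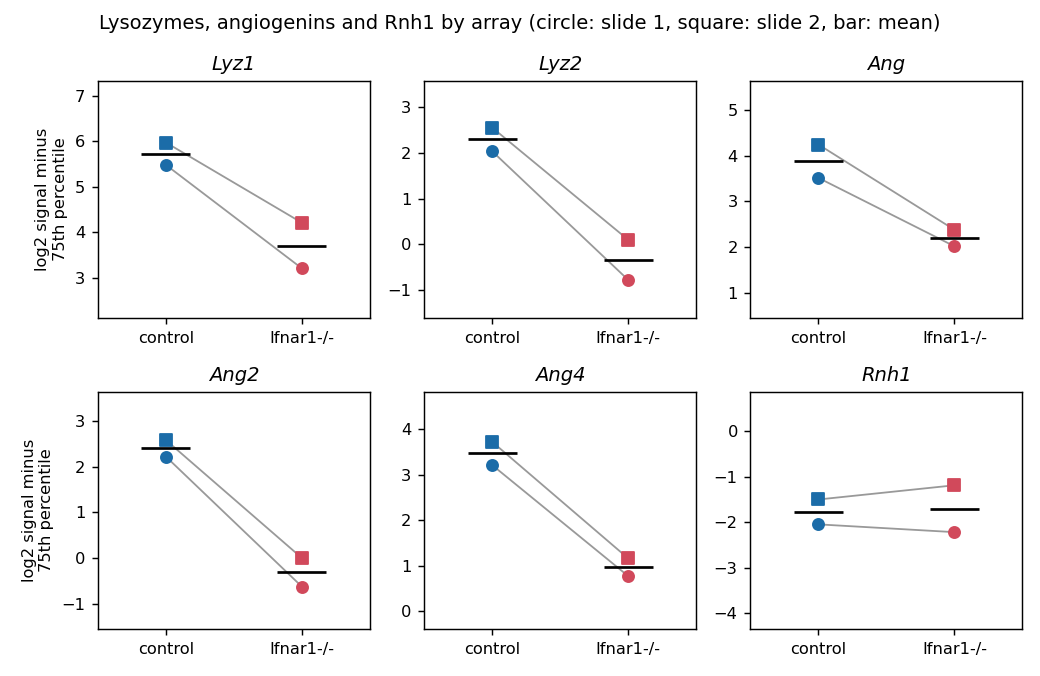
Level of each member on the 4 arrays (y axis, log2 signal minus the array's 75th percentile; the span of the axis is the same in each panel, its position is not). Circles are slide 1, squares slide 2, grey lines join the arrays of a slide and black bars are group means. Both lines drop for Lyz1, Lyz2, Ang, Ang2 and Ang4, whereas those of Rnh1 part in opposite directions.

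Rnh1, the inhibitor, was called in neither fit. Its probe was dim, with a processed signal of 58.8 and 87.1 for the controls, and of 50.5 and 111 for the knockouts. The knockout arrays lay outside the control arrays on either side, so the groups overlapped. Slide 1 gave a difference of -0.17 and slide 2 one of 0.31, with a mean of 0.07 (log2; limma with the slide block, SE 0.22, adjusted p = 0.923; adjusted p = 1.00 without it). The 95% interval of the difference ran from -0.49 to 0.63 with the block and from -1.02 to 1.16 without it. With the block that interval does not reach those of the other members, of which the nearest, for Ang, ran from -1.98 to -1.39. Without the block it met that of Ang, which ended at -0.94, but not that of Lyz1, which ended at -1.08, nor those of Lyz2, Ang2 and Ang4. Angiogenin minus inhibitor differences were negative on both slides: -1.33 and -2.18 for Ang, -2.68 and -2.90 for Ang2, and -2.26 and -2.87 for Ang4 (log2, slide 1 then slide 2, not tested). A change in protein, or in free ribonuclease activity, was not measured.

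In all, 5 of the 6 members fell with the slide block, where 0.362% of all genes tested fell (90 of 24864) and 0.0523% rose. The same 5 were the members whose groups did not overlap, with the knockout lower, a pattern shown by 11.5% of all genes (14.5% had the knockout higher without overlap). They were lower on both slides, as were 27.3% of all genes. Without the slide term limma called 0 members and 0% of genes in either direction, with 427 genes lower and 258 higher at an unadjusted p under 0.05. The member calls also rest on the intensity trend in the variance: with the slide block and no trend, the adjusted p of these 5 lay between 0.438 and 0.458, and 0 of 24864 genes were called.

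**Figure D2:**
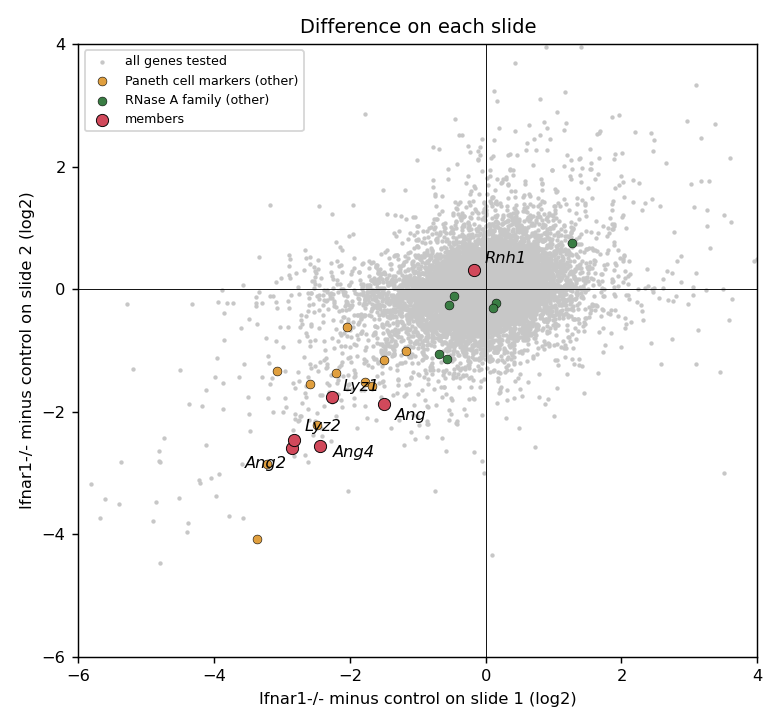
Difference between knockout and control on slide 1 (x axis) and slide 2 (y axis), log2, for all genes tested (grey), members (red), other Paneth cell markers (orange) and other ribonuclease A genes (green). Of all genes, 8 lie outside the axes. Lyz1, Lyz2, Ang, Ang2 and Ang4 sit between -2.85 and -1.50 on each axis among the Paneth cell markers, and Rnh1 sits near the origin.

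Of 23 other family genes listed, 14 had a named probe and 7 were tested. None of the 7 passed in either fit. For 2 both knockout arrays lay below both control arrays and for 1 above, where 11.5% of all genes lay below and 14.5% above. The median of the 7 differences was -0.29 (-0.47 on slide 1 and -0.25 on slide 2). Rnase4, which encodes a secreted ribonuclease and shares the start window printed for Ang, read 2.50 and 3.11 on the control arrays, and 1.81 and 2.06 on those of the knockout. Its difference was -0.88 (limma with the slide block, adjusted p = 0.0854), and, as for Ang, it was the larger on slide 2, at -1.06 against -0.69. Rnase1, the pancreatic-type enzyme, differed by -0.86 without passing (adjusted p = 0.275). Rnase12 was the family member with higher values in the knockout, by 1.01 (adjusted p = 0.239). The angiogenin genes Ang3, Ang5 and Ang6 have no named probe here. Eosinophil-associated ribonucleases are near-identical copies, so their single values are uncertain.

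Other members of the lysozyme family were mostly dim. All 8 have a named probe, but 5 were well above background on 0 arrays, and 3 were tested, with 0 passing. Lalba, which encodes alpha-lactalbumin, differed by -0.18, Spaca5, a sperm lysozyme-like gene, by -0.08 and Lyzl4 by 0.44. Of 9 tested genes for the angiogenin receptor and for transfer RNA cleavage, 0 passed; 6 were higher and 0 lower on both slides, where 33.9% of all genes were higher and 27.3% lower, and the median was 0.14. Rtcb, the transfer RNA ligase, differed by 0.22, Sdc4, a heparan sulfate proteoglycan, by 0.15, and Rnaset2a, a lysosomal ribonuclease, by 0.14. Plxnb2, the receptor for angiogenin, differed by 0.04.

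**Figure D3:**
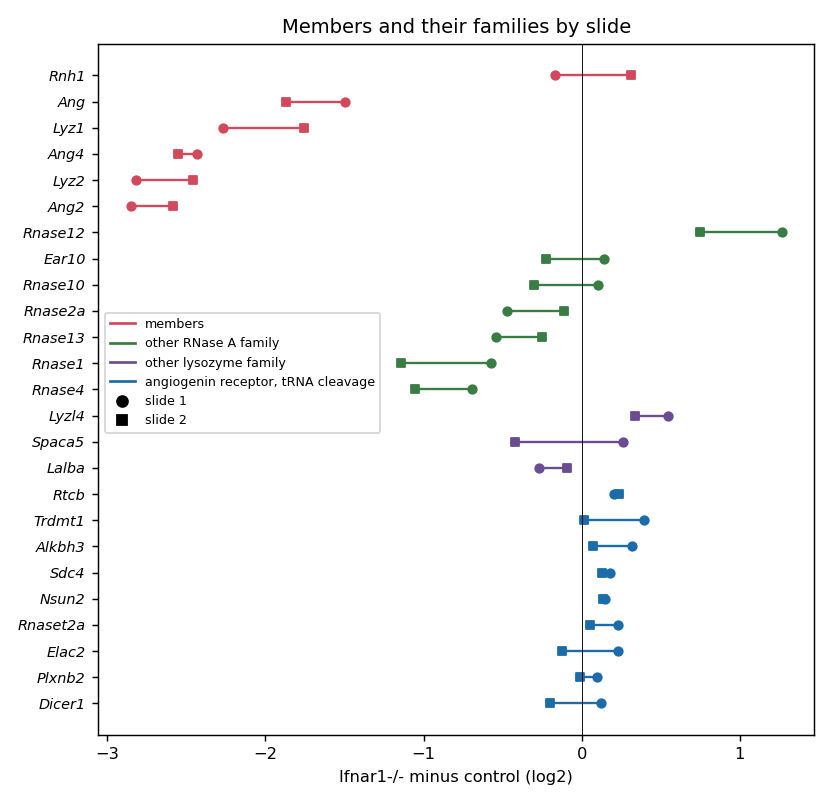
Difference between knockout and control (x axis, log2) on slide 1 (circles) and slide 2 (squares) for the members (red), other ribonuclease A genes (green), other lysozyme genes (purple) and genes for the angiogenin receptor and transfer RNA cleavage (blue). Lyz1, Lyz2, Ang, Ang2 and Ang4 lie left of every other gene shown.

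Nearby genes on the chromosomes were measured too. Lyz1 and Lyz2 lie next to each other on chromosome 10 in the RefSeq gene order. Beside Lyz2 lies 9530003J23Rik, which has a named probe but was not tested. Yeats4, 2 genes from Lyz2, differed by 0.00278, and Cpsf6, next to Lyz1, by -0.05, both with overlapping groups. Cpm, the gene beyond Cpsf6, was higher by 1.33 without passing (limma with the slide block, adjusted p = 0.164). On chromosome 14, Ang4 is flanked by Gm5800, which differed by 0.17. Rnase4, next to Ang, differed by -0.88, and Rnase1, 2 genes from Ang2, by -0.86. Both were lower without overlap, and neither passed. Rnase2a, 2 genes from Ang2 on the other side, differed by -0.29 with overlapping groups. Hras and Ptdss2, on either side of Rnh1 on chromosome 7, differed by 0.21 and 0.01.

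Markers of Paneth cells moved with the lysozymes and angiogenins. Of 18 other Paneth cell markers, 11 had a named probe. All 11 were tested and well above background on all 4 arrays. Both knockout arrays lay below both control arrays for each, as for 11.5% of all genes. With the slide block 7 fell, where 0.362% of all genes did. The 11 differed by -1.79 in the median (-2.20 on slide 1 and -1.51 on slide 2). Their summed signal, in multiples of the array's 75th percentile, was 928 and 1274 for the controls, against 282 and 518 for the knockouts. Clps, a colipase, fell 8.23-fold (limma with the slide block, adjusted p = 0.00459), Itln1, an intestinal lectin, by 1.63 on the log2 scale (adjusted p = 0.00609) and Defa3, an alpha-defensin, 3.13-fold (adjusted p = 0.00715). The part of Paneth cell RNA in the member differences was not tested. In sorted pools, fewer cells of a type and less RNA per cell cannot be told apart.

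Myeloid markers are given because Lyz2 is a myeloid gene. Of 20 listed, all 20 have a named probe and 14 were tested, with 0 passing. Without overlap 3 were lower and 1 higher, where 11.5% of all genes were lower and 14.5% higher. The median difference of the 14 was -0.04. Their summed signal was 259 and 372 for the controls, against 245 and 363 for the knockouts, most of it from the Itgam probe; without that probe it was 53.0 and 43.3 against 41.2 and 38.4. Spi1, Laptm5, Mrc1, Cx3cr1 and C1qc were well above background on 0 of the 4 arrays. The 3 genes whose knockout arrays both lay below the control arrays were Cd14, a co-receptor for bacterial lipopolysaccharide, at -1.02, Ctss, a lysosomal protease, at -0.74, and Lst1 at -0.41 (limma with the slide block, adjusted p = 0.303, 0.307 and 0.315). C1qa was the gene higher without overlap, at 0.50 (limma with the slide block, adjusted p = 0.463). The part of myeloid RNA in the Lyz2 difference was not tested.

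Markers of other lineages were summarised by their medians, their calls and the overlap of their groups. The 13 goblet cell markers tested differed by -0.67 in the median (-1.22 on slide 1 and -0.12 on slide 2). With the slide block 2 of them fell, the chemokine genes Ccl9 and Ccl6, where 0.362% of all genes did. Both knockout arrays lay below both control arrays for 8 of the 13, and above for 1, Zg16 (difference 0.50). For the 13 enteroendocrine markers the median was -0.46, with 0 passing, 5 lower and 1 higher without overlap. Lgr5 stem cell markers had a median of 0.12 over 14 genes, enterocyte markers 0.36 over 14, tuft cell markers 0.08 over 9 and lymphocyte markers 0.19 over 9, and 0 passed in each list. Without overlap, 0 stem cell markers were lower and 7 higher. These counts were 1 and 9 for enterocyte markers, 1 and 3 for tuft cell markers and 1 and 3 for lymphocyte markers. Of all genes tested, 11.5% were lower and 14.5% higher without overlap. The part of each lineage in the member differences was not tested.

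Genes with the most similar pattern were sought for Lyz1 and Ang4 over the 4 arrays, by the root mean square distance between values centred on each gene's mean, among 13023 other named genes well above background on all arrays. Nearest to Lyz1 were Defa-ps1, at a distance of 0.12, the matrilysin gene Mmp7 (0.16), Defa36 (0.18), the lipase relative Pnliprp2 (0.18) and the interferon-induced gene Ifi27 (0.18). Nearest to Ang4 were Ang2 (0.15), the lectin gene Reg4 (0.18), Lyz2 (0.19), Pnliprp2 (0.19) and the secreted phospholipase gene Pla2g2f (0.27). Lyz2 thus ranked 3rd for Ang4 but 23rd for Lyz1, at a distance of 0.32. Values were not scaled, so the distance also counts the size of a difference. That was -2.64 for Lyz2, -2.50 for Ang4 and -2.01 for Lyz1. Ang ranked 20th for Lyz1 and 22nd for Ang4. Rnh1 ranked 3733rd and 6571st. With 4 arrays this likeness is a description of these samples.

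**Figure D4:**
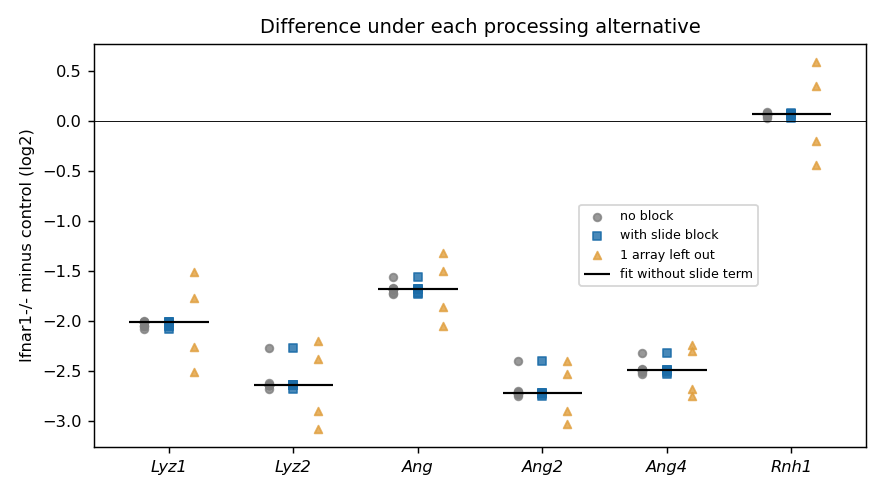
Difference between knockout and control for each member (y axis, log2) in the fit without a slide term (black bar), under other settings without the block (grey), with the slide block (blue) and with 1 array left out (orange). The 5 secreted proteins stay between -3.08 and -1.32, and Rnh1 lies on both sides of 0 when 1 array is left out.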

How the data were processed

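RNA from 4 sorted samples was amplified by a whole-transcriptome method, labelled with Cy3 and hybridised to Agilent mouse arrays, per the labels' protocols. The deposited scanner tables hold background-corrected linear intensity from Agilent Feature Extraction 12.0.3.1, per the file headers (11.5.1.1 per the submitters' processing notes). The authors' deposited series table holds the same intensity times 1 constant per array, from 5.60 to 6.68 (column medians 249, 231, 239 and 223 for control 1, control 2, knockout 1 and knockout 2), and what that scaling aimed at is unknown; it served as an alternative.

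Outlier spots were dropped, spots of a probe averaged, and log2 signal taken minus the array's 75th percentile. A probe was kept when well above background on both arrays of a group, and a gene was its brightest kept probe. Accessions were matched to the RefSeq table of GRCm38.p6, which named 28331 of 55681 probes. The headers give build mm9, so no gene coordinates are printed, and promoter coordinates are those of the RefSeq promoter table. Probe sequences were not used here.

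Groups were compared over 24864 genes with limma 3.58.1 in R 4.3.3 (variance trend on intensity, Benjamini-Hochberg adjustment at 0.05), without a slide term. Of these genes 14801 had a symbol, and each accession without a symbol counted as a gene of its own. Shares of all genes include both kinds. A second fit took the slide, equal to the replicate number, as a block, because every slide carried an array of either group. In the text "fell" and "rose" refer to the slide-block fit, which has 1 residual degree of freedom. Arrays of the same replicate number shared a pattern. The difference between the control arrays and that between the knockout arrays, both slide 1 minus slide 2, correlated at r = 0.563 across genes, which are not independent replicates. The slide cannot be told apart here from anything else that samples of a replicate number shared. Promoters were aligned globally with Biopython 1.88. Members, lists and the rule for naming genes (up to 3 per list by smallest p with the block, and the 5 nearest to Lyz1 and Ang4) were chosen with earlier results of these data known. From the list on the angiogenin receptor and transfer RNA cleavage 1 gene is not reported here. Plxnb2, C1qa, Zg16, markers named as dim and chromosomal neighbours were named outside that rule, after their values were seen.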

Additional observations from a re-analysis of the deposited data

How the results depend on the processing

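Lyz1, Lyz2, Ang, Ang2 and Ang4 were lower in the knockout under all 19 alternatives, and the settings decide whether they pass. With the replicate block (the slide pairing) limma called 103 genes, and the differences, equal to those without it, were -2.01 (Lyz1), -2.64 (Lyz2), -1.68 (Ang), -2.72 (Ang2) and -2.50 (Ang4), each past the threshold; restricting the block fit to probes well above background on all arrays left these values and called 80 genes. The block fit called 143 genes with quantile scaling (-2.08, -2.65, -1.73, -2.73 and -2.52 in that order), 342 with normexp (-2.05, -2.27, -1.56, -2.40 and -2.32) and 155 on the authors' deposited table (-2.05, -2.68, -1.72, -2.76 and -2.53), and all 5 passed in each. Without the intensity trend it called 0 genes and none of the 5 (1024 genes lower and 1036 higher at an unadjusted p under 0.05). These combined settings were chosen after seeing the data. The other 9 settings without the replicate block other than leaving out an array called 0 genes.

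Leaving out 1 array in the fit without the block, where the lone sample of a group is assumed to vary like the other group, called 9 genes when knockout 1 was dropped, 21 when control 1 was, 76 when control 2 was and 91 when knockout 2 was. Differences then ran from -2.51 to -1.51 for Lyz1, called without knockout 2 alone, and from -2.05 to -1.32 for Ang, called in 0 of 4. They ran from -3.08 to -2.20 for Lyz2, from -3.03 to -2.41 for Ang2 and from -2.75 to -2.24 for Ang4, each called in 3 of 4 and lost without knockout 1 (adjusted p = 0.0818, 0.069 and 0.0739). Rnh1 was called in 0 of 19 alternatives; its sign turned without control 1 or knockout 2, and its difference ran from -0.44 to 0.58. Of the 5 members that were lower, Ang had the least negative mean difference under all 19 alternatives. Without knockout 1 it was close to Lyz1, at -1.50 against -1.51. On slide 2 alone Lyz1 was the less negative, at -1.76 against -1.87 for Ang. The order of Ang2, Lyz2 and Ang4 changed with normexp, without knockout 1, without knockout 2 and between slides.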

Other observations

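Genes that act downstream of lysozyme or help to package it were looked at for the same samples. Lysozyme releases wall fragments that are read by peptidoglycan recognition proteins and NOD receptors. The list of 12 genes held these together with Toll-like receptors and other innate immune genes. Of the 12, 8 were tested, and 0 passed in either limma fit. The 8 differed by -0.28 in the median (-0.43 on slide 1 and -0.13 on slide 2). Pglyrp1, a secreted bactericidal recognition protein, was at 3.44 and 3.54 in controls 1 and 2 and at 2.46 and 3.31 in knockouts 1 and 2. Its groups did not overlap, but the difference was -0.97 on slide 1 and -0.22 on slide 2 (limma with the slide block, adjusted p = 0.335). Nod1 had nearly the same differences, -0.99 and -0.20 (adjusted p = 0.385). Tlr2, a receptor for bacterial lipoproteins, differed by -0.65 with overlapping groups (adjusted p = 0.423).

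Genes for sorting lysozyme into granules and for the secretory machinery of Paneth cells gave 11 tested of 13, with 0 passing and a median of -0.21. Irgm1, an interferon-inducible GTPase, differed by -1.03 and had the smallest p of the list (limma with the slide block, adjusted p = 0.0743). Ern2, the stress sensor of mucus-secreting epithelium, differed by -0.78 (adjusted p = 0.27). Atg16l1, an autophagy gene, differed by -0.21, while its level moved by more between slides, from 4.99 to 3.61 in the control and from 4.83 to 3.35 in the knockout. Each member was brighter on slide 2 than on slide 1 in either group, by 0.36 to 0.73 in the control and by 0.36 to 1.03 in the knockout (log2).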
